A study of Gallus gallus with 15 samples.

Results

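In the hypothalamus of newly hatched broiler chicks, 65 genes were lower after green light throughout incubation than after dark incubation, and lower again when green light was given only in the last 3 days before hatch, while white light left their level near that of the dark chicks. They were chosen from a table of 24356 genes by the group means of log2(CPM + 1), where CPM is a gene's count after its library is scaled to a total of 1000000. A gene was taken if its mean count over the 15 libraries was 50 or more, its Green mean was at least 0.3 below the Control mean, its G3D mean was at least 0.3 below the Green mean, and its White mean was within 0.2 of the Control mean. Of the 6564 genes with a mean count of 50 or more, 867 met the first difference, 621 the second and 163 both, and 68 of these were also within the limit for White. From the 68, 3 were left out by name (ADAM10, HDAC11 and APMAP), and 65 remained. The mirrored rule, with both differences of at least 0.3 upwards and the same limit for White, found 13 genes. Since the levels in all 4 groups chose the genes, their differences between groups are given as a description and carry no test.

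Total RNA from 1 hypothalamic hemisphere of broiler chicks, a fast-growing meat type, was profiled on the day of hatch by bulk MARS-Seq, a method that reads transcripts from their 3′ end and counts each molecule once by a random tag (UMI). G3D eggs (4 libraries, replicates 1, 5, 6 and 7) received green monochromatic illumination in the last 3 days of incubation and were otherwise dark, Green eggs (3 libraries, replicates 2, 7 and 9) received it throughout incubation and hatching, White eggs (4 libraries, replicates 1, 3, 6 and 7) received white light throughout, and Control eggs (4 libraries, replicates 4, 5, 6 and 8) stayed dark. The labels call the Green, White and Control chicks male and give no sex for G3D, while the study describes the chicks of this experiment as male. No tray, trial or batch is given for the samples, and the lamps stood over separate trays, so that light and tray cannot be told apart. Values per library are listed in the order of these replicate numbers, whose meaning the labels do not give.

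As background, the avian hypothalamus is reached by light through the retina and through photoreceptors deep in the brain, and it governs growth, feeding and metabolism. Mitochondria oxidise fuel through the tricarboxylic acid cycle and the respiratory chain, lysosomes break down material delivered by vesicles, and the endoplasmic reticulum lengthens fatty acids for membrane lipids. Genes of all these systems are among the 65.

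Names were available for 45 of the 65 genes, and the other 20 are given by their Ensembl identifier. By the role of the product, 8 named genes act on lipids (among them ELOVL5, ELOVL7, INSIG1, SPTLC1, GGPS1, SERINC1 and Enpp2). Another 10 were placed with lysosomes and membrane traffic (LAMP1, SLC15A4, LMBRD1, WDR41, RAB33B, TMED5, TRAPPC11, COMMD2, AGFG1 and MAGT1). Of these, MAGT1 acts in N-glycosylation and is counted here only for want of a closer role. There were 10 in signalling (among them RALB, RYK, CAB39, ARPP19, PPP2R3B, CDK17, CHN2, ZDHHC17 and angiopoietin-2B), 5 in the metabolism of sugars, amino acids and nucleotides (TIGAR, GNPNAT1, PSAT1, HPRT1 and AIRC) and 5 in the nucleus and protein turnover (SKIV2L2, ACTL6A, UBA2, MAEA and KLHL13). Mitochondria had 3 (MT-ND4, SDHA and ISCA1), the synthesis of the transmitter GABA had 1 (GAD2), and 3 were not placed (TMEM69, MLF1 and TMEM128). These roles were assigned with the 65 genes in view, so the numbers per role are not tested. All 65 genes passed edgeR's filter on low counts, their mean counts lay between 53.1 and 147724 with a median of 142, and 61 of them had at least 10 counts in every library.

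**Figure D1:**
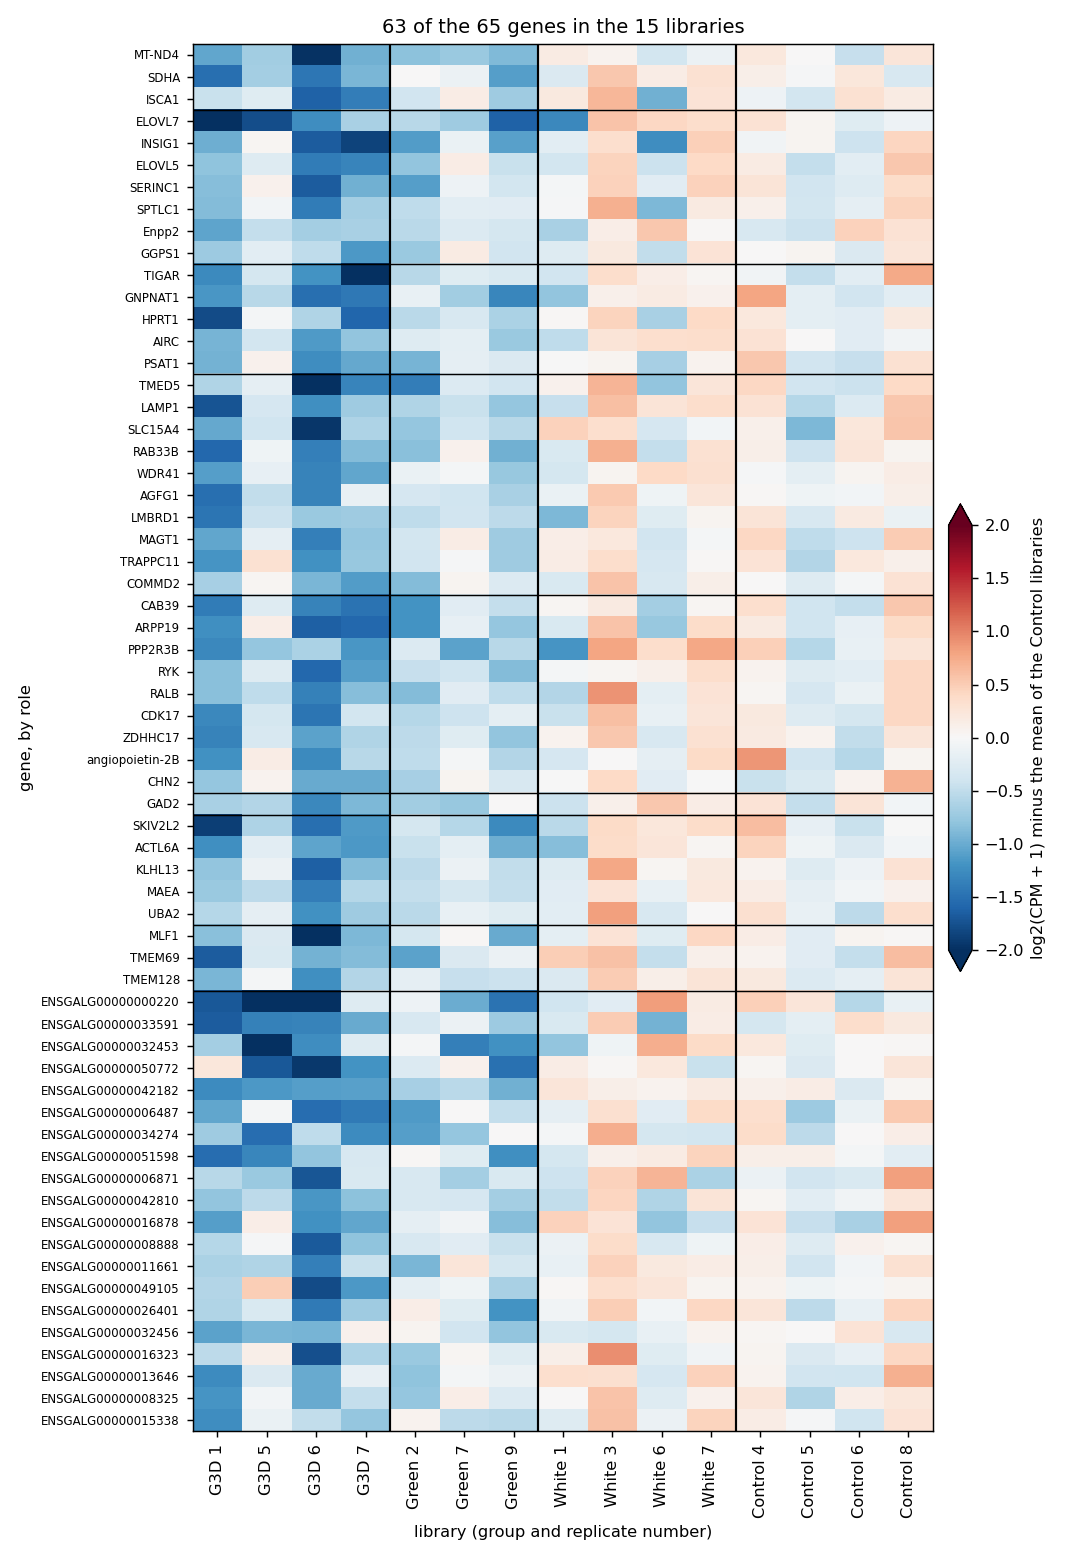
Each row is a gene, for 63 of the 65 genes, grouped by role between the black lines, and each column is 1 of the 15 libraries. The colour gives log2(CPM + 1) minus the mean of the 4 Control libraries, from blue (lower) to red (higher), with values beyond 2 in either direction drawn in the end colour. By group, G3D is the bluest, and Green lies between G3D and the White and Control groups. Single columns depart from this order. G3D 5 is paler than the other 3 G3D columns and than Green 2 and Green 9, and Green 7 is about as blue as Control 5.

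Over the 65 genes the median difference between Green and Control was -0.45 on the scale of log2(CPM + 1), between G3D and Green -0.39, and between G3D and Control -0.87 (from -1.64 to -0.65). Over all 10475 genes tested the same medians were -0.004, -0.001 and 0.007. White differed from Control by a median of 0.06 in the 65 genes and of 0.09 in all genes tested. That general shift of White comes with scaling by column totals, under which the edgeR median of White against Control over all genes was 0.10, against 0.01 with TMM scaling. On the TMM scale, where libraries are matched on the bulk of their genes, White and Control differed by a median of 0.01 both in the 65 genes and in all genes. The part of the whole difference between G3D and Control that was also present in Green had a median of 52.8% over the 65 genes (from 28.5% to 71.5%). It was above 50% in 40 of them. As the rule asks for at least 0.3 in each of the differences, a share near the middle follows in part from it.

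The level of the 65 genes in a library was summarised as the mean of log2(CPM + 1), scaled by TMM, minus the mean of the Control libraries. It was -1.03, -0.44, -1.42 and -0.89 in the G3D libraries, -0.53, -0.27 and -0.67 in the Green libraries, -0.28, 0.25, -0.24 and 0.10 in the White libraries, and 0.18, -0.27, -0.10 and 0.19 in the Control libraries. The groups averaged -0.95 ± 0.40 in G3D (SD, n = 4), -0.49 ± 0.20 in Green (SD, n = 3), -0.04 ± 0.26 in White (SD, n = 4) and, by construction, 0 in Control, with an SD of 0.23 (n = 4). G3D replicate 5 lay within the range of the Green libraries, and the other 3 G3D libraries lay below every Green library. Green replicate 7 lay within the range of the White libraries and just above the lowest Control library, and the other 2 Green libraries lay below every White and Control library. White and Control libraries overlapped throughout.

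**Figure D2:**
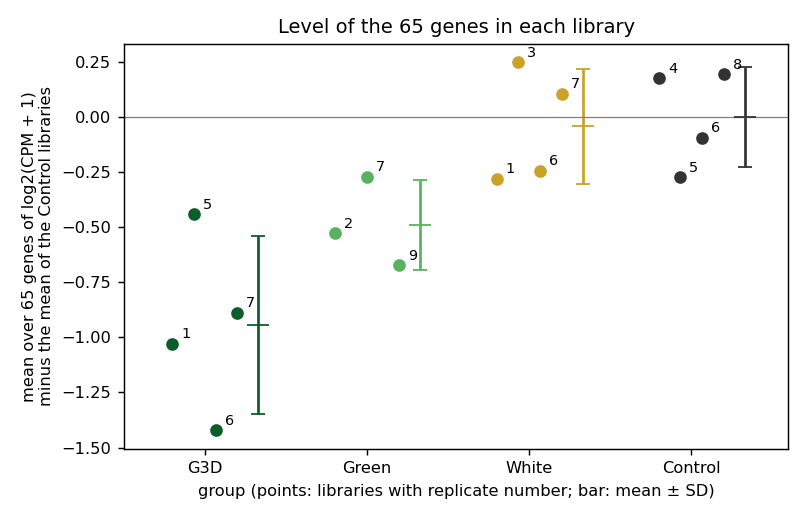
Each point is 1 library with its replicate number, and the vertical axis is the mean over the 65 genes of log2(CPM + 1), TMM-scaled, minus the mean of the Control libraries. Bars give the mean ± SD of each group, which was -0.95 in G3D, -0.49 in Green, -0.04 in White and 0 in Control.

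Total counts lay between 4196251 and 7979031 in G3D, 5898618 and 8205918 in Green, 3944530 and 8077895 in White and 6066732 and 9501555 in Control. The G3D library with the lowest level of the 65 genes, replicate 6, also had the lowest total of its group, the fewest genes with a count of all 15 libraries (12270, against 13913 in the library with the most) and the smallest share of counts in its 100 highest genes (39.6%, against 41.7% to 46.5% in the others). G3D replicate 5, the highest of its group, had the highest total of G3D, and among the Green libraries the lowest level also went with the lowest total. In Control the highest total of all 15 libraries, in replicate 5, went with the lowest level of the group. In White the lowest total (replicate 6) and the lowest level (replicate 1) were in different libraries. Mean totals were 6142994 in G3D, 7151189 in Green, 5952644 in White and 7852484 in Control. The part of depth in the differences was not tested. Every pair of libraries of a group differed by more than counting error, the chi-square divided by its degrees of freedom lying between 11.8 and 27.9. In such whole-tissue RNA, fewer cells of a type and less RNA per cell cannot be told apart.

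The label hypothalamus could be checked only in part, because a symbol is paired with an identifier only for genes that the study listed as changed. Of 99 marker symbols of 12 cell types and brain regions, some of them alternative names of the same gene, 7 could be found. Among the hypothalamic peptides, somatostatin (SST) had between 604 and 1320 CPM and galanin (GAL) between 6.27 and 157 CPM, and AGRP had between 0 and 60.1 CPM. The neuronal genes SNAP25 and STMN2 had 479 CPM or more in every library. Against Control, G3D was higher in SST (a difference of 0.80 on the log2(CPM + 1) scale), GAL (2.30), AGRP (3.14), STMN2 (0.36), VIM (0.63), which marks ependyma and tanycytes, and EMX2 (0.67), a telencephalic gene, and lower in SNAP25 (-0.41), with an unadjusted edgeR p under 0.05 in all 7 and an adjusted one in 1, SST. Over all 10475 genes tested, 713 were higher and 924 lower at an unadjusted p under 0.05. Only genes that the study listed as changed could be found, which largely fixes the p-values of the 7. They therefore cannot show whether cell types differed between the groups, and their part in the 65 genes was not tested. Markers of astrocytes, oligodendrocytes, microglia, endothelium, choroid plexus, red blood cells, pituitary and thalamus had no identifier and were not analysed here.

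Among the mitochondrial genes, SDHA (ENSGALG00000013167), the flavoprotein subunit of succinate dehydrogenase, which serves both the tricarboxylic acid cycle and the respiratory chain, showed the larger difference in the second step. It had 72.8, 130.1, 76.02 and 111 CPM in G3D, 211, 193 and 96.8 CPM in Green, 172, 304, 232 and 259 CPM in White and 229, 206, 245 and 167 CPM in Control. All G3D libraries lay below all White and Control libraries, while Green replicate 9 lay among the G3D libraries and the other 2 Green libraries among the Control ones. The log2 fold change was -1.14 (SE 0.25) for G3D against Control, -0.79 (SE 0.27) for G3D against Green and -0.35 (SE 0.27) for Green against Control. Here and below, log2 fold changes with their standard error (SE) come from edgeR's quasi-likelihood fit.

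MT-ND4 (ENSGALG00000036229), a subunit of respiratory complex I encoded by the mitochondrial genome, had the reverse balance. Its level was 754, 965, 393 and 804 CPM in G3D, 881, 926 and 846 CPM in Green, 1751, 1632, 1209 and 1438 CPM in White and 1799, 1563, 1133 and 1846 CPM in Control. Both green groups lay wholly below White and Control, and G3D replicate 5 lay above all 3 Green libraries. Against Control the log2 fold change was -1.12 (SE 0.22) in G3D and -0.84 (SE 0.24) in Green. Of the mitochondrially encoded genes that could be found, 3 more were not among the 65. MT-ND2, MT-ND3 and ND1, other complex I subunits, had G3D minus Control differences of -0.96, -0.64 and -0.60 on the log2(CPM + 1) scale, of which -0.73, -0.32 and -0.51 were present in Green. MT-ND2 and ND1 missed the limit of 0.3 between G3D and Green, at -0.22 and -0.09, and MT-ND3 missed the limit for White, at -0.21. The third mitochondrial gene of the set was ISCA1, which takes part in iron-sulfur cluster assembly.

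The 8 lipid genes had G3D minus Control differences between -1.49 and -0.65 on the log2(CPM + 1) scale, with a median of -0.89. ELOVL7 (ENSGALG00000014730), an elongase of very long chain fatty acids, had 8.97, 13.4, 19.8 and 30.5 CPM in G3D, 32.5, 29.3 and 15.1 CPM in Green, 19.2, 72.05, 64.4 and 62.02 CPM in White and 59.3, 50.3, 40.7 and 44.7 CPM in Control. Every G3D and every Green library was below every Control library, and White replicate 1 was as low as the green groups. Its log2 fold change against Control was -1.46 (SE 0.39) in G3D and -0.92 (SE 0.42) in Green.

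ELOVL5 (ENSGALG00000016314), which elongates polyunsaturated fatty acids, had 27.8, 41.2, 18.1 and 19.2 CPM in G3D, 28.03, 54.7 and 36.1 CPM in Green, 38.2, 67.6, 36.5 and 64.99 CPM in White and 55.3, 35.05, 42.4 and 71.7 CPM in Control. The groups overlapped, since G3D replicate 5 exceeded the lowest Control library and Green replicate 7 exceeded 2 Control libraries, and the log2 fold change of G3D over Control was -0.94 (SE 0.30).

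INSIG1 (ENSGALG00000017394), which holds the sterol sensor SCAP in the endoplasmic reticulum and so restrains sterol synthesis, was split within each group. G3D had 8.69, 18.5, 5.004 and 4.28 CPM and Green 7.799, 16.5 and 7.97 CPM, while White had 15.4, 23.2, 7.098 and 25.6 CPM and Control 17.1, 18.8, 13.4 and 24.6 CPM. G3D replicate 5 and Green replicate 7 lay within the Control range, and White replicate 6 lay below it. GGPS1 (ENSGALG00000042853), which makes the geranylgeranyl lipid used for protein anchors, and SPTLC1 (ENSGALG00000013493), a subunit of the first enzyme of sphingolipid synthesis, had log2 fold changes of -0.66 (SE 0.23) and -0.73 (SE 0.30) for G3D against Control. GGPS1 lay between 13.8 and 27.3 CPM in G3D, 18.5 and 35.4 CPM in Green, 22.1 and 38.5 CPM in White and 25.5 and 37.5 CPM in Control. SPTLC1 lay between 9.06 and 24.6 CPM in G3D, 17.5 and 21.8 CPM in Green, 13.2 and 42.2 CPM in White and 19.6 and 35.1 CPM in Control. In both genes the G3D and Control ranges overlapped.

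Enpp2 (ENSGALG00000032746) encodes autotaxin, the secreted enzyme that makes lysophosphatidic acid. Its values were 112, 166, 145 and 148 CPM in G3D, 159, 193 and 183 CPM in Green, 148, 254, 339 and 236 CPM in White and 187, 172, 319.8 and 284 CPM in Control. The G3D libraries lay below all Control libraries, 1 Green library lay below and 2 within the Control range, and the log2 fold change of G3D over Control was -0.78 (SE 0.23). SERINC1 (ENSGALG00000014868), a membrane protein of the serine incorporator family, had 73.2, 141, 40.99 and 67.7 CPM in G3D, 60.8, 123 and 103 CPM in Green, 129, 183, 113 and 182 CPM in White and 159, 102, 111 and 171 CPM in Control, with G3D replicate 5 within the Control range and a log2 fold change of -0.75 (SE 0.33).

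The 10 genes placed with lysosomes and membrane traffic, MAGT1 included, had G3D minus Control differences between -1.25 and -0.67, with a median of -0.89. The G3D and Control ranges did not overlap in 2 of them, beside 3.46% of all genes tested. LAMP1 (ENSGALG00000037697), a main glycoprotein of the lysosomal membrane, had 27.2, 72.8, 38.6 and 56 CPM in G3D, 60.3, 67.2 and 53.6 CPM in Green, 66.3, 140.4, 109.8 and 117 CPM in White and 113, 61.9, 75.7 and 135 CPM in Control. Control itself was divided, with replicates 5 and 6 close to the highest G3D and Green libraries and replicates 4 and 8 far above them. The log2 fold change was -0.99 (SE 0.29) in G3D and -0.67 (SE 0.32) in Green, both against Control. SLC15A4 (ENSGALG00000002695), a lysosomal transporter of histidine and small peptides, had 4.56, 7.52, 1.91 and 6.33 CPM in G3D, 5.61, 7.48 and 6.61 CPM in Green, 14.4, 13.2, 7.86 and 9.78 CPM in White and 11.1, 5.05, 12.2 and 15.5 CPM in Control, with Control replicate 5 below the Green libraries. All 4 G3D libraries lay below all White libraries for this gene, but not below all Control ones.

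RAB33B (ENSGALG00000009790), a small GTPase of the Golgi, had 9.26, 27.6, 10.7 and 15.6 CPM in G3D, 15.96, 31.2 and 14.6 CPM in Green, 23.5, 48.6, 20.8 and 36.5 CPM in White and 31.8, 21.9, 34.9 and 30.4 CPM in Control. One library of each green group, G3D replicate 5 and Green replicate 7, lay within the Control range, and the log2 fold change of G3D over Control was -0.92 (SE 0.34). TMED5 (ENSGALG00000005904), a cargo receptor between the endoplasmic reticulum and the Golgi, had 7.41, 10.3, 0.715 and 4.09 CPM in G3D, 3.9, 9.53 and 8.82 CPM in Green, 12.5, 19.5, 6.34 and 14.1 CPM in White and 16.1, 8.74, 8.41 and 15.8 CPM in Control. The lowest G3D value rests on 3 counts, the smallest count of any of the 65 genes in any library, and the log2 fold change of G3D over Control was -1.07 (SE 0.49). MAGT1 (ENSGALG00000007861), a subunit of the oligosaccharyltransferase that glycosylates proteins, lay between 2.86 and 7.77 CPM in G3D, 5.09 and 10.1 CPM in Green, 6.59 and 10.5 CPM in White and 5.999 and 13.2 CPM in Control.

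**Figure D3:**
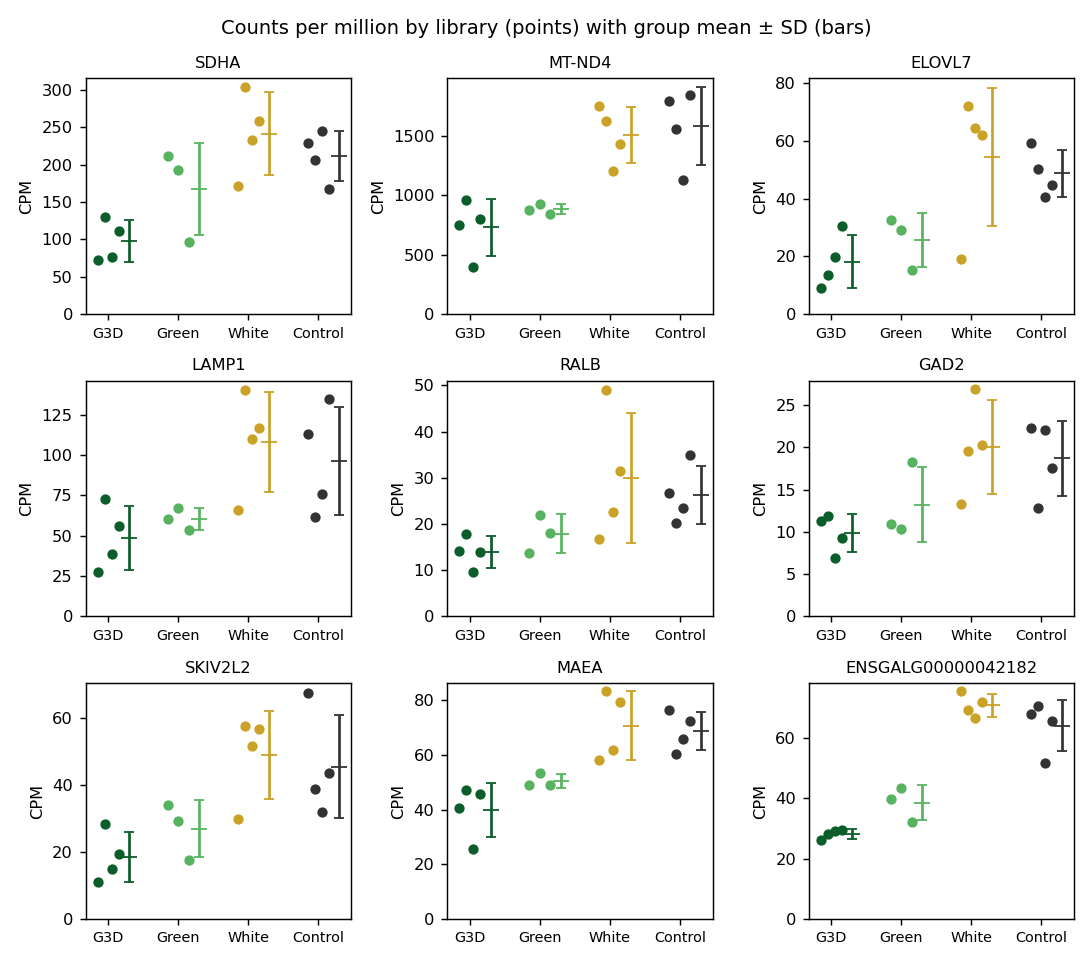
Each panel shows 1 gene, with a point per library and a bar for the group mean ± SD, on a vertical axis of CPM that starts at 0. In MAEA and ENSGALG00000042182 the 3 groups G3D, Green and Control do not overlap; in MT-ND4 Green and G3D overlap but both lie below Control; in LAMP1 neighbouring groups overlap.

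The 10 signalling genes had G3D minus Control differences between -1.12 and -0.68, with a median of -0.87. RALB (ENSGALG00000026493), a Ras-like GTPase of exocytosis, had 14.1, 17.9, 9.53 and 13.95 CPM in G3D, 13.6, 22.04 and 17.97 CPM in Green, 16.8, 49.02, 22.6 and 31.6 CPM in White and 26.6, 20.3, 23.6 and 34.97 CPM in Control, so that G3D lay below Control without overlap. Green replicate 2 lay within the G3D range and Green replicate 7 within the Control range, and the log2 fold change of G3D over Control was -0.92 (SE 0.28).

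CAB39 (ENSGALG00000027262), the scaffold that activates the kinase LKB1 upstream of AMPK, had 9.68, 22.7, 10.2 and 9.12 CPM in G3D, 11.3, 23.3 and 19.3 CPM in Green, 28.1, 30.9, 16.7 and 27.98 CPM in White and 34.7, 20.5, 19.3 and 40.1 CPM in Control. ARPP19 (ENSGALG00000017370), an inhibitor of protein phosphatase 2A when phosphorylated, had 14.2, 37.8, 10.5 and 10.98 CPM in G3D, 14.6, 30.6 and 19.8 CPM in Green, 27.7, 51.8, 20.03 and 44.7 CPM in White and 39.5, 26, 30.7 and 45.3 CPM in Control. In both genes G3D replicate 5 stood at more than the other 3 G3D libraries by over 2-fold and within the Control range. CHN2 (ENSGALG00000011164), a chimaerin that switches off the GTPase Rac, showed the same library apart, with 62.1, 112, 52.9 and 52.8 CPM in G3D against 67.5, 112 and 85.3 CPM in Green, 106, 142, 91.8 and 107 CPM in White and 78.2, 86.5, 112 and 173 CPM in Control. The log2 fold changes of G3D over Control were -1.14 (SE 0.32), -0.93 (SE 0.40) and -0.69 (SE 0.27) for CAB39, ARPP19 and CHN2.

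GAD2 (ENSGALG00000040436), 1 of the enzymes that make GABA from glutamate, had 11.3, 11.9, 6.91 and 9.302 CPM in G3D, 10.97, 10.3 and 18.3 CPM in Green, 13.3, 19.6, 26.9 and 20.3 CPM in White and 22.3, 12.8, 22.1 and 17.6 CPM in Control. Every G3D library lay below every White and Control library, and 2 of the 3 Green libraries lay among the G3D ones. The log2 fold change was -0.93 (SE 0.27) in G3D and -0.52 (SE 0.29) in Green. No other gene of the 20 listed for GABA synthesis, transport and reception had an identifier.

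The 5 genes of sugars, amino acids and nucleotides had a median G3D minus Control difference of -1.01. TIGAR (ENSGALG00000026776), a phosphatase that lowers fructose 2,6-bisphosphate and with it glycolysis, had 6.55, 13.2, 6.91 and 3.53 CPM in G3D, 11.3, 14.4 and 13.7 CPM in Green, 12.9, 22.3, 19.01 and 17.6 CPM in White and 16.3, 12.1, 14.7 and 29.6 CPM in Control. The Green libraries lay at the lower end of the Control range or just below it, and the larger difference was between G3D and Green, with a log2 fold change of -0.79 (SE 0.34). GNPNAT1 (ENSGALG00000012414), an enzyme on the way to UDP-N-acetylglucosamine for glycosylation, had 5.13, 8.397, 3.81 and 4.09 CPM in G3D, 11.3, 7.48 and 4.58 CPM in Green, 6.92, 13.8, 14.5 and 13.6 CPM in White and 22.7, 11.1, 9.56 and 10.8 CPM in Control. G3D lay below all Control libraries, 1 Green library lay among the Control ones, and the log2 fold change of G3D over Control was -1.33 (SE 0.35).

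In the nucleus, SKIV2L2 (ENSGALG00000014709), the helicase that feeds RNA to the nuclear exosome, had 11.1, 28.3, 14.8 and 19.5 CPM in G3D, 34.1, 29.3 and 17.6 CPM in Green, 29.9, 57.6, 51.7 and 56.9 CPM in White and 67.6, 38.9, 31.98 and 43.7 CPM in Control. All G3D libraries lay below all White and Control libraries, with a log2 fold change of -1.32 (SE 0.30) against Control. MAEA (ENSGALG00000013310), a ubiquitin ligase subunit of the CTLH complex, was the only named gene of the 65 with both differences complete. Its values were 40.7, 47.2, 25.7 and 45.8 CPM in G3D, 49.1, 53.5 and 49.2 CPM in Green, 58.1, 83.3, 61.9 and 79.5 CPM in White and 76.3, 60.4, 65.9 and 72.4 CPM in Control. The gap between the highest G3D and the lowest Green library was small beside the one between the highest Green and the lowest Control library, and the log2 fold changes were -0.45 (SE 0.19) for Green against Control and -0.35 (SE 0.19) for G3D against Green.

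The genes without a symbol were looked at after their values were seen. ENSGALG00000042182 had 26.1, 28.2, 29.1 and 29.4 CPM in G3D, 39.8, 43.5 and 32.2 CPM in Green, 75.7, 69.4, 66.7 and 72.05 CPM in White and 68.04, 70.8, 51.8 and 65.7 CPM in Control. The 4 G3D libraries differed little from each other, both differences were complete, and the log2 fold change of G3D over Control was -1.21 (SE 0.14). ENSGALG00000033591 had 10.97, 13.9, 14.1 and 17.9 CPM in G3D, 29.5, 34.2 and 22.04 CPM in Green, 29.7, 53.2, 18.8 and 41.2 CPM in White and 28.8, 32.2, 47.3 and 42.3 CPM in Control. For this gene G3D lay below every other library, while Green and Control overlapped. The gene with the most counts, ENSGALG00000032456, had 12285, 13643, 13438 and 27198 CPM in G3D, 26671, 19621 and 14951 CPM in Green, 20713, 20249.9, 23258 and 27055 CPM in White and 26368, 25830.1, 31246 and 20546 CPM in Control, so that G3D replicate 7 was above every library except Control replicate 6. The other 64 genes together took 0.180% to 0.290% of the counts in G3D, 0.265% to 0.340% in Green, 0.423% to 0.554% in White and 0.423% to 0.534% in Control.

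The ranges of G3D and Control did not overlap in 20 of the 65 genes, beside 3.46% of all genes tested, those of Green and Control in 11, beside 3.99%, those of G3D and White in 15, beside 7.21%, and those of G3D and Green in 3, beside 2.12%. Both differences were complete in 2 genes, MAEA and ENSGALG00000042182, beside 0.0382% of all genes tested, which are 4 genes. Of the other 2 of these 4, ENSGALG00000012044 and KIAA0319, White was further above Control than the rule allows, by 0.34 and 0.22. By edgeR's quasi-likelihood test with Benjamini-Hochberg adjustment over all genes, 2 of the 65 were lower in G3D than in Control at an adjusted p under 0.05, ENSGALG00000042182 (adjusted p = 0.000242) and ENSGALG00000033591 (adjusted p = 0.0329), beside 0.0668% of all genes tested, and 61 had an unadjusted p under 0.05, beside 8.82%. Between Green and Control and between G3D and Green, 0 genes were lower at an adjusted p under 0.05, beside 0% of all genes. At an unadjusted p under 0.05 the counts were 9, beside 3.58%, and 5, beside 1.99%, and DESeq2 called 1 and 0 of the 65 at an adjusted p under 0.05, beside 0.099% and 0.00567% of the genes it tested. Between G3D and Control DESeq2 called 20 of the 65 lower, beside 1.53%. Since the rule used these contrasts, nothing is read from these counts. White and Control differed at an unadjusted p under 0.05 in 0 of the 65, beside 5.43% of all genes tested, which follows from the limit on White in the rule.

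Within each group, the same library was the highest or the lowest in many of the 65 genes. G3D replicate 5 was the highest G3D library in 51 of the 65 genes, and G3D replicate 6 the lowest in 37. Green replicate 7 was the highest Green library in 46 genes, and White replicate 3 the highest White library in 42. In Control, replicate 8 was the highest library in 35 genes and replicate 5 the lowest in 36. These counts were not made over all genes. In G3D replicates 1, 6 and 7, 64, 64 and 58 of the 65 genes lay below every Control library, and in replicate 5 it was 25. Over all genes tested, 27.5%, 25.9%, 25.7% and 17.5% lay below every Control library in G3D replicates 1, 6, 7 and 5. White replicate 1 lay below every Control library in 19 of the 65 genes, beside 16.0% of all genes tested. White replicate 3 lay above every Control library in 35 of them, for which the share of all genes was not counted. Without G3D replicate 5, 56 of the 65 genes had no overlap between G3D and Control, beside 9.62% of all genes tested, and 25 none between G3D and Green, beside 6.13%. Without Green replicate 7, 26 genes had none between Green and Control, beside 10.5%. Leaving out either library was chosen after seeing the data. Not every gene was high in G3D replicate 5, since ENSGALG00000032453 and ENSGALG00000034274 were lowest there. ENSGALG00000032453 had 307, 72.9, 208 and 411 CPM in G3D.

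The values at the limits of the rule were close to those just outside. Nearest to the limit on Green minus Control were MAGT1 at -0.31 and, outside, ENSGALG00000019716 at -0.30 (-0.298 before rounding), and nearest to that on G3D minus Green were COMMD2, which takes part in endosomal sorting, at -0.31 and, outside, PPWD1 at -0.29. For White minus Control, ENSGALG00000026401 at 0.198 was inside and ENSGALG00000031635 at 0.2004 outside, and for the mean count ENSGALG00000008325 with 53.1 was inside and ENSGALG00000002164 with 49.1 outside. Genes that failed 1 limit alone numbered 61 for the mean count, 230 for Green minus Control, 375 for G3D minus Green and 95 for White minus Control.

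Which genes met the rule depended on single libraries. With 1 library left out in turn, between 35 genes (without G3D replicate 6, of which 27 were among the 65) and 123 genes (without G3D replicate 5, of which 62 were) met it. The number was 104 without Control replicate 5, 103 without Control replicate 6, 41 without Control replicate 4 and 38 without Control replicate 8. None of the 65 genes met the rule in all 15 of these repeats, 42 met it in 10 or more, and the median gene in 11. MAEA and ENSGALG00000042182 each met it in 14 of the 15, and PSAT1, an enzyme of serine synthesis, in 4, the fewest.

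**Figure D4:**
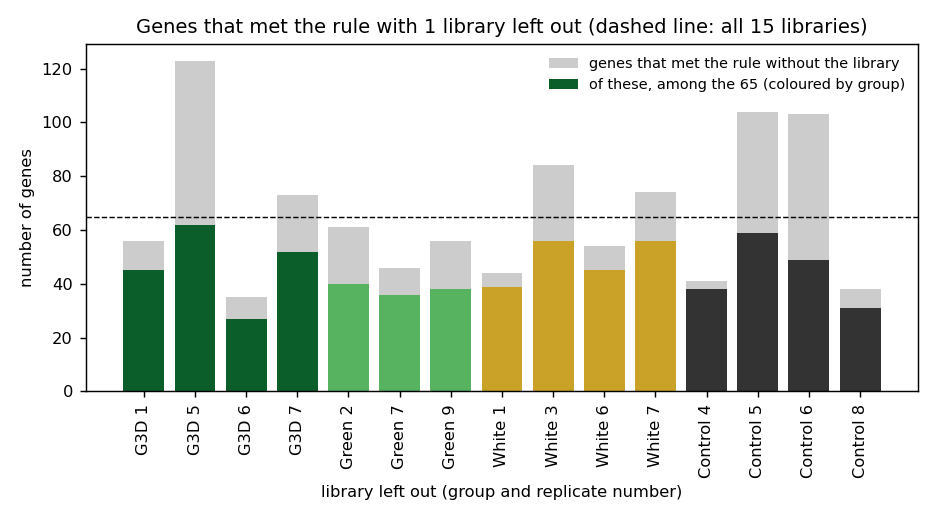
Each bar is the number of genes that met the rule when the library named below it was left out, and its coloured part counts those among the 65, with colours by group. The dashed line marks the 65 genes found with all 15 libraries; the bars reach from 35 without G3D replicate 6 to 123 without G3D replicate 5.

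The rule used group means and did not use the variation among libraries of a group directly. That variation is described here. After the group means were subtracted from log2 CPM (prior count 2), Pearson's r between 2 of the 65 genes averaged 0.39 over 2080 pairs, and it was above 0 in 86.3% of the pairs, beside a mean of 0.002 over pairs of all genes tested. Correlated with the mean of the other 64 over the 15 libraries, the genes had a median r of 0.71, and 50 of 65 (76.9%) reached 0.5. The same level reached 0.5 with 16.1% of the other 10410 genes, and -0.5 or less with 11.0%. These values are across genes of the same 15 libraries, which share their depth and scaling, and carry no p. TMM scaling matches libraries on the bulk of their genes, which tends to bring the mean over all pairs towards 0. That mean is therefore no reference for genes of like abundance and spread, which were not compared. A gene that varies much within groups also has more variable group means, and genes that vary together share such shifts of their means. The rule could favour both, and how far it did was not tested. The co-variation therefore cannot be taken as independent of the rule.

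The r with the other genes was 0.94 for KLHL13, an adaptor of a ubiquitin ligase, 0.88 for SERINC1, 0.87 for ARPP19, 0.86 for ELOVL5 and MAEA, 0.79 for LAMP1 and 0.69 for MT-ND4. It was 0.58 for SDHA, 0.30 for GAD2, 0.25 for Enpp2, 0.20 for ELOVL7 and 0.16 for ENSGALG00000042182, and below 0 only in ENSGALG00000034274 (-0.18) and ENSGALG00000032453 (-0.31). Genes outside the 65 that varied most closely with them, among those with a symbol, were MESDC2 and GUCY1A3 (r = 0.95 each), and NDRG3 varied most in the opposite direction (r = -0.93). These genes and KLHL13 were picked after their values were seen.

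**Figure D5:**
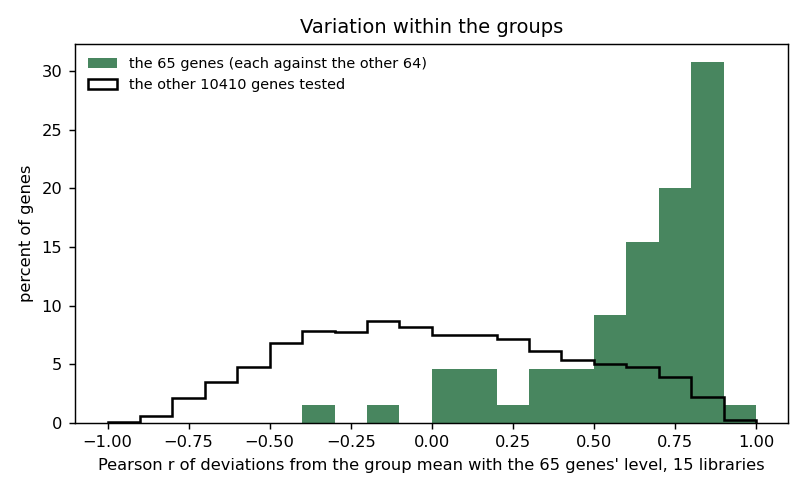
Filled bars give the percentage of the 65 genes, and the outline the percentage of the other 10410 genes tested, by Pearson's r of a gene's deviations from its group means with the level of the 65 genes over 15 libraries (for each of the 65, the level of the other 64). The median is 0.71 in the 65 genes and -0.004 in the others.

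Other genes of the same pathways were looked up in 15 lists, which hold 362 symbols besides those of 16 of the 65 genes. Some of these symbols are alternative names of the same gene. Of the 362, 48 could be found, because only genes that the study listed as changed have a symbol. That choice largely fixes their share of differences, so the counts are a description and cannot show how many list genes stayed level. None of the 48 differed between G3D and Control at an adjusted p under 0.05 in edgeR. At an unadjusted p under 0.05, the measure used for each list here, 40 were lower and 6 higher. Over all 10475 genes tested, 924 were lower and 713 higher by that measure. The study itself listed more genes as lower than as higher in G3D, so the direction is partly set by the choice too. In the tricarboxylic acid cycle, 6 of 18 genes besides SDHA were found, with 4 lower and 2 higher. IDH3A, a subunit of isocitrate dehydrogenase, had a G3D minus Control difference of -1.04 on the log2(CPM + 1) scale, with -0.38 in Green, while the opposite sign was seen in CS, citrate synthase (0.60), and DLST (0.70).

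Counted likewise without the 65, glycolysis had 2 of 18 genes, both lower, with PFKP at -0.62. Of 25 symbols for mitochondrially encoded genes, 3 were found, all lower. That list enters each gene under alternative names, MT-ND4 included, so it holds fewer genes than symbols. Fatty acid elongation had 2 of 14, both lower, with HACD2, a dehydratase of the elongation cycle, at -1.37, of which -1.08 was present in Green. The peroxisome had 3 of 27, all lower, among them the transporter ABCD3 at -0.94. Sterol and isoprenoid synthesis had 4 of 19, with 2 lower and none higher, and DHCR7, a late enzyme of cholesterol synthesis, at -0.93. Sphingolipid synthesis had 2 of 14, both lower, with UGT8, which makes galactosylceramide of myelin, at -0.97, and there White was also below Control, by -0.38.

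The lysosome had 3 of 22 genes, with 2 lower and 1 higher, the higher one being the proton pump subunit ATP6V0D1 (0.44) while the pump subunit ATP6V1A was at -0.96. SNARE proteins had 6 of 41, all lower, the Rab GTPases 6 of 48 (5 lower, 1 higher), Ras signalling 3 of 33, all lower, and N-glycosylation 4 of 26 (3 lower, 1 higher). Chaperones had 4 of 21, with HSPA4L at -1.03 and 2 others lower, and HSP90B1, the chaperone of the endoplasmic reticulum, higher by 0.61. None of 19 GABA genes besides GAD2 and none of the 17 immediate-early genes could be found.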

How the data were processed

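Hypothalamic RNA of 15 samples was measured by bulk MARS-Seq. The authors trimmed adapters with Cutadapt, mapped reads with STAR onto 1000 bases of 3′ UTR regions of the chicken genome (GRCg6a in the submitters' processing notes), marked reads of the same gene and UMI as duplicates and counted with HTSeq-count. The deposited table holds raw counts by Ensembl gene, which the authors did not normalize. As only gene 3′ ends were read, a weak 3′ end annotation can lower a gene's counts. Whether it did so alike in every library was not tested. Total counts ranged between 3944530 and 9501555 per library, and no samples were left out. Counts of 24356 genes were scaled to CPM, the rule was applied, and all genes passing filterByExpr (10475) were fitted in R 4.3.3 with edgeR 4.0.16 (TMM, robust quasi-likelihood fit, 4 groups in 1 model, Benjamini-Hochberg adjustment, threshold 0.05). Alternatives were DESeq2 1.42.0, its size factors, column totals, no count filter, the replicate number as a block, other limits of the rule, and each library left out in turn.

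Symbols came from the study's supplementary table (568 identifiers, all genes it listed as changed), so most genes, markers and pathway members have none, and no coordinates or sequences are given. The genes and lists were chosen with earlier results of these data known. Genes described with values were the members on a pathway list, the 10 named members with the largest difference between G3D and Control, the 5 named members with the most counts, named members with complete separation, and those nearest to each limit. Exceptions are stated where they occur, and 2 members are counted but not reported singly here. The labels number the replicates of a group without naming a chick, while the study gives its n as individual animals. The p-values measure only the spread between these samples, from which a technical part was not separated.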

Additional observations from a re-analysis of the deposited data

Results flagged for a closer look

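For the 28 genes followed individually and for the mean level of the 65, 87 groups of 4 libraries (G3D, White and Control) were examined for a library far from its group, of which chance flags about 1 in 20, and 6 were found, all of them for single genes. G3D replicate 5 stood apart in 3 of them, with 22.7 CPM of CAB39 (the other G3D libraries between 9.12 and 10.2), 37.8 CPM of ARPP19 (10.5 to 14.2) and 112 CPM of CHN2 (52.8 to 62.1). GNPNAT1 had 6.92 CPM in White replicate 1, where the other White libraries had 13.6 to 14.5, and 22.7 CPM in Control replicate 4, where the others had 9.56 to 11.1. ENSGALG00000008325 had 5.37 CPM in Control replicate 5, against 9.56 to 10.4 in the other Control libraries. Groups of 3 libraries (Green) were not examined in this way.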

How the results depend on the processing

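The rule found 65 genes as given. It found 30 with 5 added to CPM in place of 1, 104 with a mean count of 20 or more and 20 with one of 200 or more, and between 35 and 123 with 1 library left out. TMM scaling gave 87 genes and DESeq2's size factors 86, 59 of them among the 65 in each case. Group medians gave 58, of which 26 were among the 65. With DESeq2, genes called at an adjusted p under 0.05 numbered 8 for White against Control in either direction, 9 lower for Green against Control (1 of the 65, beside 0.099% of 9090 tested), 1 lower for G3D against Green (0.00567% of 17639) and 129 lower for G3D against Control (20 of the 65, beside 1.53% of 8405). Without a count filter, the calls were 1 for White, 1 lower for Green and 20 lower for G3D, each against Control. With 1 library left out, calls lower in G3D than in Control ranged from 1 to 176, and among the 65 genes from 1 to 33, with both highest values without G3D replicate 5. Over all genes the calls were 0 to 1 for Green against Control, G3D against Green and White against Control, and 0 of the 65 were called lower in Green than in Control or in G3D than in Green.

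No pairing of the libraries by replicate number was seen. Deviations from the group means of libraries with the same number had r between -0.10 and 0.12 over 8 pairs. Pairs with different numbers were not set beside them, and a smaller shared part was not tested. Numbers 2, 3, 4, 8 and 9 belong to 1 library each, so a block by number takes these libraries out of the comparisons. With the replicate number as a block, 4 genes were called for White against Control and 3 lower for G3D against Control, 1 of them among the 65.

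The median log2 fold change of the 65 genes kept its sign in every alternative for G3D against Control, G3D against Green and Green against Control. The rule chose the genes for these directions in the same libraries, so a kept sign follows largely from that choice. With 1 library left out it was between -1.16 and -0.73 for G3D against Control, -0.65 and -0.24 for G3D against Green, and -0.62 and -0.40 for Green against Control. With the block it was -0.66, -0.59 and -0.18 for these comparisons, against -0.92, -0.38 and -0.46 without it. In the block fit Green rested on replicate 7 alone and Control on replicates 5 and 6. The loss of the other libraries and an effect of the block therefore cannot be told apart. None of the 28 genes followed individually passed the threshold for G3D against Control as given, so none could lose a call. ENSGALG00000042182 and ENSGALG00000033591, which passed it, are not among the 28, and their calls were not followed singly through the alternatives. All 560 alternative fits kept the direction, for which the rule had chosen the genes. A gene passed the threshold in 31 of them (16 without G3D replicate 5 and 12 with DESeq2). The log2 fold change of 6 of the 28 genes shrank by over 1.5 times with the block, in TIGAR to -0.62 and in LAMP1 to -0.43. Depth limits the genes with few counts, since 24 of the 65 had a mean count under 100.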
